A study of Sus scrofa with 40 samples.

Results

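The SLC25A genes, which encode the mitochondrial carrier proteins, were described in pig (Sus scrofa) metaphase II oocytes, mature eggs arrested before fertilisation. Members were the rows of the count tables whose gene symbol is SLC25A followed by a number, and there were 41 of them among 38794 named rows. All 41 symbols matched a pig gene in the RefSeq name table, while SLC25A10, SLC25A12, SLC25A30 and SLC25A42 are not analysed here. The libraries were 5 mtDNA-deficient and 6 mtDNA-normal pools of oocytes and 14 mtDNA-deficient and 15 mtDNA-normal single oocytes, all from a hybrid of Large White, Duroc and Berkshire pigs. No allele, agent or animal age is given in the labels, and the mtDNA state is given without the measurement that set it beyond dye-test words in titles. The number of oocytes in a pool and the animals behind each library are not stated, and p-values then speak only of the spread from library to library, which may be technical.

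Carriers of this family sit in the inner mitochondrial membrane, apart from a few in the outer membrane or the peroxisome, and move ATP, phosphate, nucleotides, amino acids, organic acids and cofactors across it. The ADP/ATP carriers exchange ATP made in the matrix for ADP from the cytosol. The pyrimidine nucleotide carriers bring in building blocks for mtDNA and mitochondrial RNA, and the mitochondria of the oocyte are those the embryo starts with. mtDNA encodes none of the carriers, and each is made from nuclear genes and imported.

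Pools held 14480546 to 29538982 counts and single oocytes 706929 to 3067523, of which 232358 to 825748 fell outside the rows LOC102158401 and RN18S. LOC102158401 took at most 0.0275% of a pool's counts but 46.7% to 76.0% of a single oocyte's. Levels are therefore given as CPM, counts scaled to a total of 1000000 outside those rows. One count was worth 0.0339 to 0.0692 CPM in a pool and 1.21 to 4.30 CPM in a single oocyte, so a low carrier is measured far more coarsely in a single oocyte. Genes with a count numbered 14207 to 18456 in deficient pools and 15057 to 19245 in normal pools. The 9 oocyte markers all had counts, with a summed level of 2747 to 9038 CPM in deficient pools, 2366 to 9185 CPM in normal pools, 4238 to 10936 CPM in deficient single oocytes and 4933 to 9481 CPM in normal single oocytes. Of the 17 cumulus and granulosa markers with a row, 9 had a count in each group of pools, 12 in deficient and 13 in normal single oocytes. Their summed level was 61.6 to 194 CPM in deficient pools, 108 to 168 CPM in normal pools, 52.3 to 148 CPM in deficient single oocytes and 35.8 to 110 CPM in normal single oocytes. INHA, AMHR2 and FOXL2, which define granulosa cells, were at 0 in all pools, and so were LHCGR, AMH, NR5A1 and HSD17B1. In single oocytes of both states FOXL2, LHCGR, NR5A1 and HSD17B1 had counts, and AMH, AMHR2, NR5A2 and TNFAIP6 had none. INHA had counts in normal single oocytes but none in deficient ones. In every group 2 of the 17 markers averaged at least 10 CPM, so transcripts on this list were present in every group. The markers with counts in pools are not named here. The 4 theca and stroma markers with a row summed to 3.54 to 7.30 CPM in deficient and 6.67 to 12.4 CPM in normal pools. In single oocytes that sum was 22.9 to 157 CPM in the deficient and 8.95 to 140 CPM in the normal state.

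The summed level of the members overlapped between all groups. Summed over the members, the level was 1791 ± 96.9 CPM over the 5 deficient pools against 1848 ± 137 CPM over the 6 normal pools (mean ± SD). In single oocytes it was 1939 ± 189 CPM in the deficient state (SD, n = 14) and 1916 ± 179 CPM in the normal state (SD, n = 15). The highest library was a deficient single oocyte at 2429 CPM and the lowest a normal one at 1498 CPM. Against all named counts, with the LOC102158401 and RN18S rows kept, the sum averaged 1813 CPM in pools against 681 CPM in single oocytes. Of the 41 members, 37 had a count in at least 1 pool and 40 in at least 1 single oocyte. SLC25A34 was at 0 in all 40 libraries, which allows up to 0.0117 CPM over the pools and 0.212 CPM over the single oocytes (3 counts of the total, for counting error only). A mean of at least 10 CPM was reached by 15 members in pools and 23 in single oocytes, and 24 members had a count in every pool against 13 in every single oocyte.

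Most of the members' counts came from few genes. In pools SLC25A44, SLC25A32, SLC25A13, SLC25A36 and SLC25A31 took 78.1% to 84.0% of the members' counts in a library, with a median of 81.2%. In single oocytes the 5 with most counts were SLC25A44, SLC25A6, SLC25A32, SLC25A13 and SLC25A36, with 47.2% to 59.9% and a median of 53.7%. These are shares of counts, which also follow transcript length, so they give no order of levels between genes. Among members at 10 CPM or more, the coefficient of variation between libraries ran from 0.110 to 0.570 in pools and from 0.151 to 1.07 in single oocytes.

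**Figure D1:**
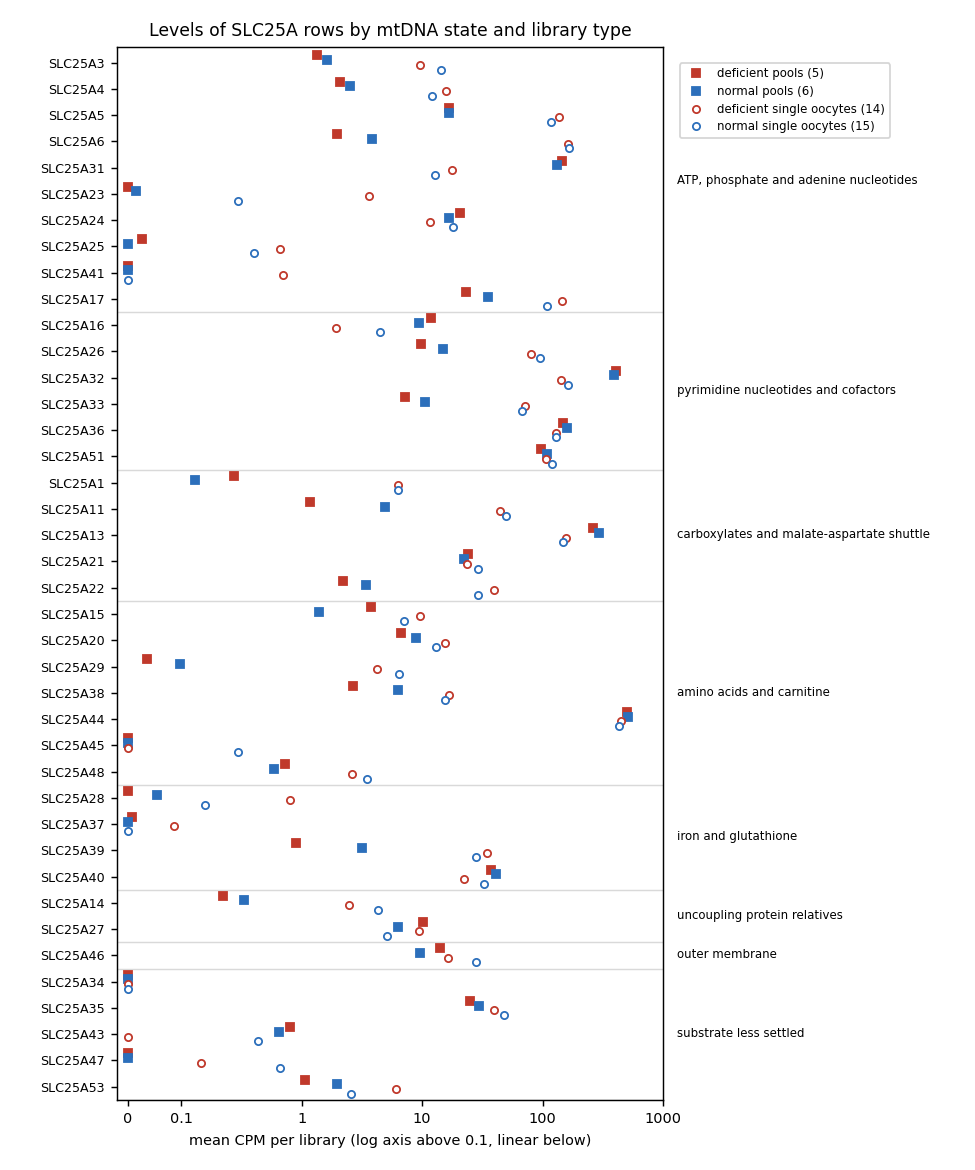
Mean CPM of the SLC25A rows reported here (horizontal axis, logarithmic above 0.1 CPM and linear below) in deficient pools, normal pools, deficient single oocytes and normal single oocytes, with the genes grouped by what they carry. Red and blue symbols of 1 shape lie close together for most genes. Squares (pools) and circles (single oocytes) part for many genes, among them SLC25A6, SLC25A31, SLC25A11, SLC25A29, SLC25A1 and SLC25A39.

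The study set deficient against normal oocytes, and no carrier passed the test between the states in either library type. In pools 29 members had enough counts to be tested and edgeR's quasi-likelihood test with Benjamini-Hochberg adjustment over 13540 genes called 0 of them, against 0% of all genes. The smallest adjusted p of a member was 0.785. At an unadjusted p under 0.05 there were 3 members of 29, where 5.32% of all genes were under it. DESeq2 also called 0 members, against 0.207% of all genes, and limma-voom 0, against 0%, and each had 3 members at an unadjusted p under 0.05, where 7.25% of all genes were under it with DESeq2 and 5.47% with limma-voom. Estimates lay above 0 for 14 members and below 0 for 15, with a median log2 difference of -0.0055 for the members and -0.0019 for all genes. The 12 members without a test were low in pools, so this count does not speak for them. In a pool, fewer oocytes with a transcript and less of it in each oocyte cannot be told apart.

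In single oocytes, counts were added up within each state over oocytes whose titles start with the same number, giving 4 deficient and 3 normal sums, so that single cells were not counted as replicates. The deficient sums 1, 2, 3 and 4 hold 2, 2, 3 and 7 oocytes, and the normal sums 2, 3 and 4 hold 4, 4 and 7. Each sum entered the main test as 1 replicate, without a block on the number. The labels do not say what the number means: numbers 1 and 3 hold oocytes dated 17 September, number 2 those of 22 September and number 4 both. Of 27 members tested, edgeR called 0, against 0% of 11964 genes, and 1 had an unadjusted p under 0.05, where 2% of all genes were under it. DESeq2 called 0, against 0.0167% of all genes, with 1 at an unadjusted p under 0.05 (2.59% of all genes), and limma-voom called 0 with 0 at that level (2.21% of all genes). Estimates lay above 0 for 10 members and below 0 for 17, with a median of -0.036 for the members and -0.0018 for all genes. Of the 25 members tested in both library types, 10 had the same sign in both. By role, the median log2 difference of the adenine nucleotide and phosphate carriers was -0.01 in pools and -0.04 in single-oocyte sums, over 7 members tested in each. The 6 pyrimidine nucleotide and cofactor carriers tested in pools had a median of 0.02, and the 5 tested in the sums one of -0.19.

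**Figure D2:**
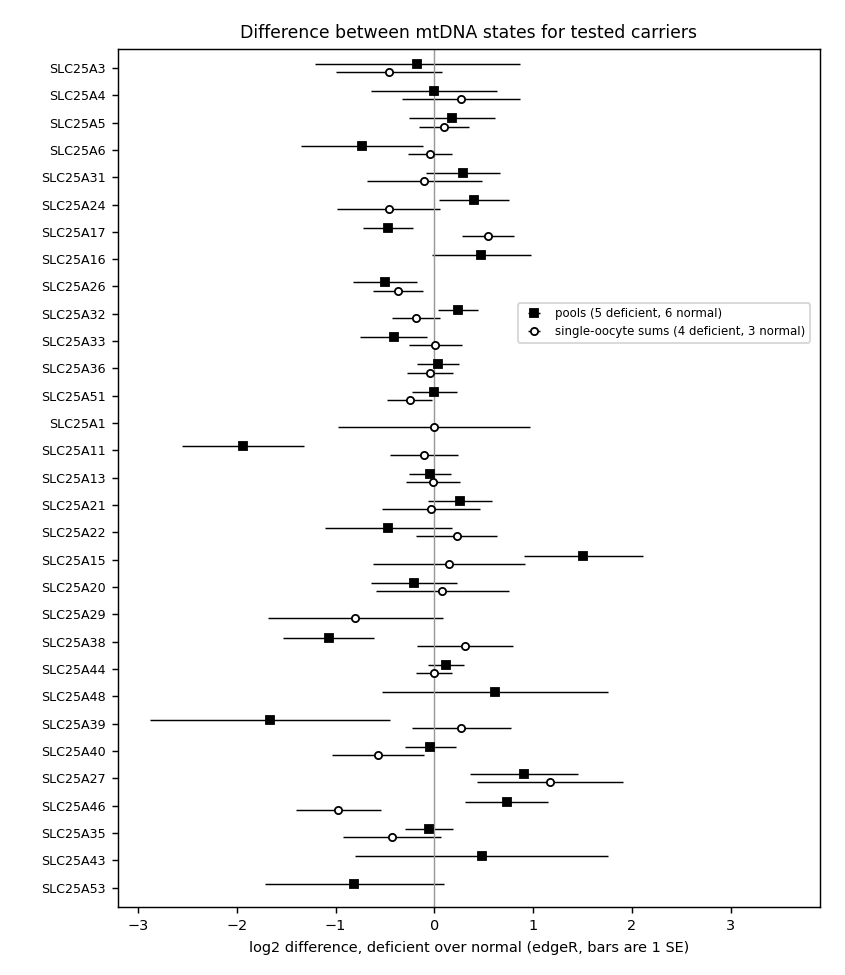
log2 difference between deficient and normal oocytes (horizontal axis, deficient over normal, edgeR) for each tested SLC25A gene, in pools (squares) and in single-oocyte sums (circles), with bars of 1 standard error. Most bars cross 0, SLC25A11 lies farthest below 0 in pools at -1.94, and SLC25A46 and SLC25A17 lie on opposite sides of 0 in the pools and the sums.

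The members nearest to the threshold in pools were SLC25A11, SLC25A15 and SLC25A38. SLC25A11, which exchanges 2-oxoglutarate for malate and so serves the malate-aspartate shuttle, had 1.22, 0.0692, 0.884, 2.55 and 1.19 CPM in the deficient pools A1, A2, A3, B2 and B4. In normal pools its lowest, median and highest levels were 1.84, 4.5 and 9.76 CPM. Only the deficient pool B2 reached into the range of the normal pools. The log2 difference was -1.94 (SE 0.62, edgeR unadjusted p = 0.00655, adjusted p = 0.785), and it stayed between -2.36 and -1.65 in the 21 other settings, with adjusted p from 0.116 to 1. The deficient pool with the lowest level, A2, also had the fewest genes with a count, 14207, and the normal pool with the highest level, B2, had the most, 19245. The part of the number of genes detected in this result was not tested.

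SLC25A38, a glycine carrier needed for heme synthesis, had 0.982, 1.31, 3.71, 3.96 and 3.31 CPM in deficient pools. Its lowest, median and highest levels in normal pools were 3.60, 6.02 and 9.76 CPM. The groups overlapped, although 3 normal pools, A2, B2 and B4, stood above every deficient one at 8.35, 9.76 and 8.09 CPM. The log2 difference was -1.07 (SE 0.46, edgeR unadjusted p = 0.0339, adjusted p = 0.917). Those 3 normal pools also had the most genes with a count, 19179, 19245 and 18607, and the part of that in the difference was not tested. SLC25A15, the ornithine carrier of the urea cycle, went the other way with 5.89, 0.899, 5.08, 5.22 and 1.72 CPM in deficient pools and a lowest, median and highest level of 0.441, 1.53 and 2.07 CPM in normal pools. The deficient pools A1, A3 and B2 stood above every normal pool, and the other two lay within the normal range. The log2 difference was 1.51 (SE 0.60, edgeR unadjusted p = 0.0239, adjusted p = 0.917). It was 0.97 (SE 0.72) in the 8 pools whose title unit both states share, and 0.74 (SE 0.74) there with the unit as a block.

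None of these differences was met in the single-oocyte sums at the same size. SLC25A11 had 38.0, 57.0, 41.03 and 44.0 CPM in the deficient sums and 29.6, 49.9 and 61.0 CPM in the normal sums, a log2 difference of -0.10 (SE 0.34). For SLC25A38 the deficient sums had 21.3, 22.3, 23.8 and 11.9 CPM and the normal sums 14.5, 13.8 and 18.3 CPM, a log2 difference of 0.31 (SE 0.48). SLC25A15 had 0.928, 15.3, 11.1 and 11.9 CPM in the deficient sums and 5.26, 15.2 and 5.41 CPM in the normal sums, a log2 difference of 0.15 (SE 0.77). In all 3 the deficient and normal sums overlapped, and edgeR's adjusted p was 1.00.

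In single oocytes the smallest p belonged to SLC25A46, an outer membrane member of the family known for its part in mitochondrial fission and cristae shape. It had 12.1, 18.1, 20.8 and 17.2 CPM in deficient sums and 31.6, 45.1 and 21.9 CPM in normal sums. Every deficient sum was below every normal one. Of the 95 counts in the normal sum 3, 75 came from 1 oocyte of 17 September at 112 CPM. The other oocytes of that sum had 8.76, 22.4 and 7.54 CPM, and the sums were not compared without that oocyte. The log2 difference was -0.97 (SE 0.43, edgeR unadjusted p = 0.0361, adjusted p = 1.00), between -1.22 and -0.64 in the 18 other settings. Oocyte by oocyte the states overlapped, with a lowest, median and highest level of 0, 16.4 and 30.4 CPM in deficient oocytes and 0, 22.4 and 112 CPM in normal oocytes. Oocytes dated 17 September averaged 14.7 ± 8.65 CPM in the deficient state (SD, n = 8) and 31.1 ± 32.7 CPM in the normal state (SD, n = 9), and those dated 22 September 18.9 ± 8.66 CPM and 23 ± 20.03 CPM (SD, n = 6 each). Deficient pools had 19.8, 13.3, 11.3, 2.98 and 22.9 CPM, and normal pools a lowest, median and highest level of 5.42, 9.95 and 13.9 CPM. There the estimate was 0.73 (SE 0.42, edgeR unadjusted p = 0.101, adjusted p = 0.926), with the deficient pool B2 below and 2 deficient pools above all normal ones.

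SLC25A17, a peroxisomal carrier of adenine nucleotides and cofactors, also differed in sign between the library types. Its levels were 242, 161, 107 and 138 CPM in deficient sums and 108, 91.7 and 126 CPM in normal sums, a log2 difference of 0.54 (SE 0.26, edgeR unadjusted p = 0.0527, adjusted p = 1.00). Deficient pools had 28.99, 14.5, 16.8, 34.4 and 20.8 CPM and normal pools a lowest, median and highest level of 18.96, 31.99 and 53.1 CPM, a log2 difference of -0.47 (SE 0.25, edgeR unadjusted p = 0.0846, adjusted p = 0.926). The groups overlapped in both library types. In each of the 3 title numbers that both states share the deficient sum was the higher one, and with that number as a block the log2 difference was 0.28 (SE 0.23), against 0.29 (SE 0.25) in the same 6 sums without it. Single oocytes of 17 September averaged 146 ± 64.2 CPM in the deficient state (SD, n = 8) and 103 ± 36.0 CPM in the normal state (SD, n = 9). Those of 22 September averaged 146 ± 40.6 CPM and 116 ± 52.4 CPM (SD, n = 6 each).

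SLC25A27 and SLC25A26 had the same sign in pools and sums. SLC25A27, also named UCP4, an uncoupling protein relative known from brain, had 8.98, 15.98, 1.19, 11.3 and 13.3 CPM in deficient pools against a lowest, median and highest level of 1.01, 6.70 and 9.47 CPM in normal pools (log2 difference 0.91, SE 0.55, edgeR adjusted p = 0.926). Its deficient sums had 19.5, 13.9, 7.60 and 6.11 CPM and its normal sums 5.92, 3.33 and 5.71 CPM (log2 difference 1.17, SE 0.74, edgeR adjusted p = 1.00). The sums did not overlap, the lowest deficient one standing just above the highest normal one, whereas the pools did. The sums rest on 21, 10, 15 and 21 counts in the deficient and 9, 7 and 19 in the normal state. Oocyte by oocyte the states overlapped, at 0 to 28.2 CPM in deficient and 0 to 17.6 CPM in normal oocytes. SLC25A26, which brings S-adenosylmethionine into the matrix for methylation, had 13.7, 5.53, 11.2, 12.5 and 5.73 CPM in deficient pools against a lowest, median and highest level of 8.66, 14.9 and 22.3 CPM in normal pools (log2 difference -0.50, SE 0.33, edgeR adjusted p = 0.926). Its sums had 86.3, 54.3, 87.6 and 80.9 CPM in the deficient state and 108, 99.8 and 87.7 CPM in the normal state (log2 difference -0.37, SE 0.26, edgeR adjusted p = 1.00). Those sums did not overlap either, by a margin of less than 0.1 CPM. The single oocytes of SLC25A26 overlapped, at 45.8 to 128 CPM in the deficient and 45.2 to 202 CPM in the normal state.

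SLC25A40, a glutathione carrier, was the fifth member by p in the sums, at 9.28, 41.7, 16.7 and 21.8 CPM in the deficient state and 38.8, 26.6 and 30.6 CPM in the normal state (log2 difference -0.57, SE 0.46, edgeR adjusted p = 1.00). The deficient sums reached both below and above the normal ones. SLC25A3, the phosphate carrier that supplies ATP synthase, completed the members whose sums did not overlap, with 12.1, 13.9, 11.7 and 8.15 CPM in the deficient state and 16.4, 14.7 and 14.4 CPM in the normal state. Its single oocytes overlapped, at 0 to 29.2 CPM in the deficient and 0 to 46.1 CPM in the normal state. In all 4 of 27 tested members had sums without overlap, 1 higher and 3 lower, where 3.9% of all tested genes had, 2.17% higher and 1.73% lower. In pools none of 29 members was without overlap, where 0.606% of genes were.

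**Figure D3:**
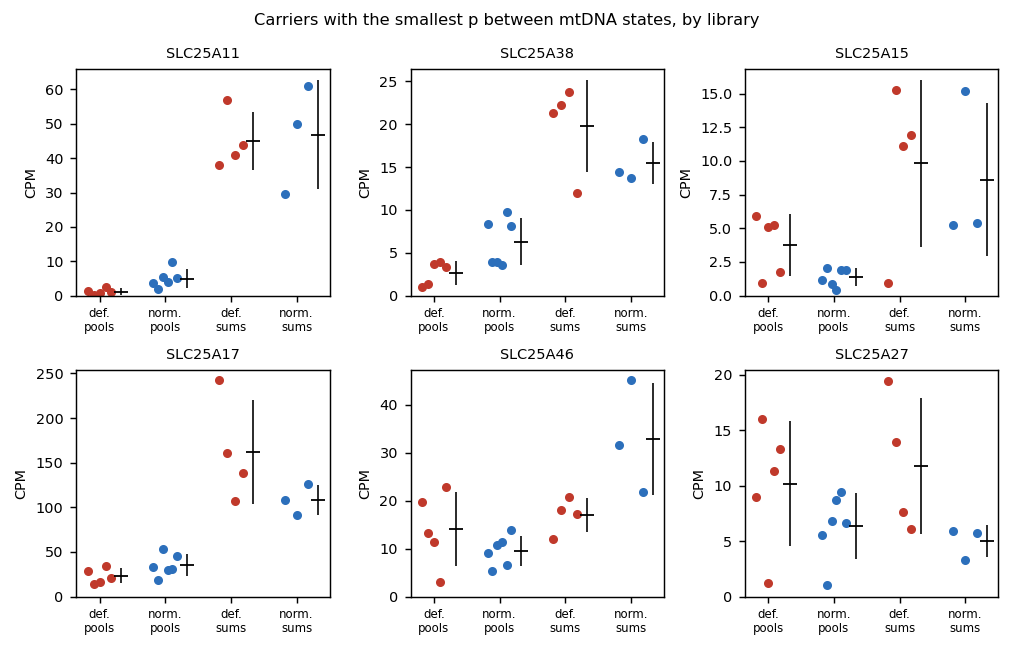
CPM (vertical axis) of SLC25A11, SLC25A38, SLC25A15, SLC25A17, SLC25A46 and SLC25A27 in each deficient pool, normal pool, deficient single-oocyte sum and normal single-oocyte sum, with a tick and bar for the mean ± SD. The deficient pools of SLC25A11 lie at 0.0692 to 2.55 CPM against 1.84 to 9.76 CPM in normal pools, and the SLC25A46 sums at 12.1 to 20.8 CPM in the deficient state against 21.9 to 45.1 CPM in the normal state.

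An interaction term fitted to the 11 pools and 7 sums tested whether the state difference itself differed between pools and single oocytes. edgeR called 0 of 33 members, against 0% of 17643 genes, and 3 had an unadjusted p under 0.05, where 5.28% of all genes had. With edgeR these were SLC25A46 (1.71, SE 0.67, unadjusted p = 0.0172), SLC25A11 (-1.79, SE 0.75, unadjusted p = 0.0252) and SLC25A17 (-0.97, SE 0.41, unadjusted p = 0.0265), with edgeR adjusted p of 0.890, 0.908 and 0.912. SLC25A38 followed at -1.35 (SE 0.74, edgeR adjusted p = 0.912). limma-voom also called 0 members, with 2 at an unadjusted p under 0.05. These values are the log2 difference in pools less that in sums, so the opposite signs of SLC25A46 and SLC25A17 are not shown to differ after adjustment over all genes.

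Between library types, by contrast, most carriers differed. Pools over single-oocyte sums, with the state in the fit, edgeR called 26 of 33 tested members, 12 higher and 14 lower in pools, where it called 67% of all 17643 genes, 31.8% higher and 35.2% lower. The median log2 difference was -0.93 for the members and -0.17 for all genes. Pools and single oocytes differed in extraction, amplification kit, depth and number of oocytes, and these cannot be told apart from the library type. The scaling moved the zero: the median of all genes was -0.65 with RLE size factors and -1.37 with no normalization factor, an alternative chosen after seeing the data. Calls were then 9 higher and 16 lower with RLE, where 25.6% of all genes were higher and 42.1% lower, and 4 higher and 18 lower with no factor, where 16.4% of all genes were higher and 50.5% lower. Values below are TMM-scaled log2 differences, followed by the value relative to the median gene.

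Called in the same direction under every setting that tested them were 4 higher members, SLC25A13, SLC25A16, SLC25A31 and SLC25A32, and 8 lower members, SLC25A1, SLC25A5, SLC25A6, SLC25A11, SLC25A22, SLC25A26, SLC25A29 and SLC25A33. The other 14 lost the call in at least 1 setting, and SLC25A21, SLC25A35 and SLC25A51 turned to the other sign with no normalization factor. The matching share of all genes is not given here, so these counts are not read as particular to the carriers. In 6 members no pool overlapped any single oocyte, SLC25A32 being higher and SLC25A5, SLC25A6, SLC25A11, SLC25A26 and SLC25A33 lower in pools, where 11.2% of genes were without overlap, 4.1% higher and 7.12% lower.

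**Figure D4:**
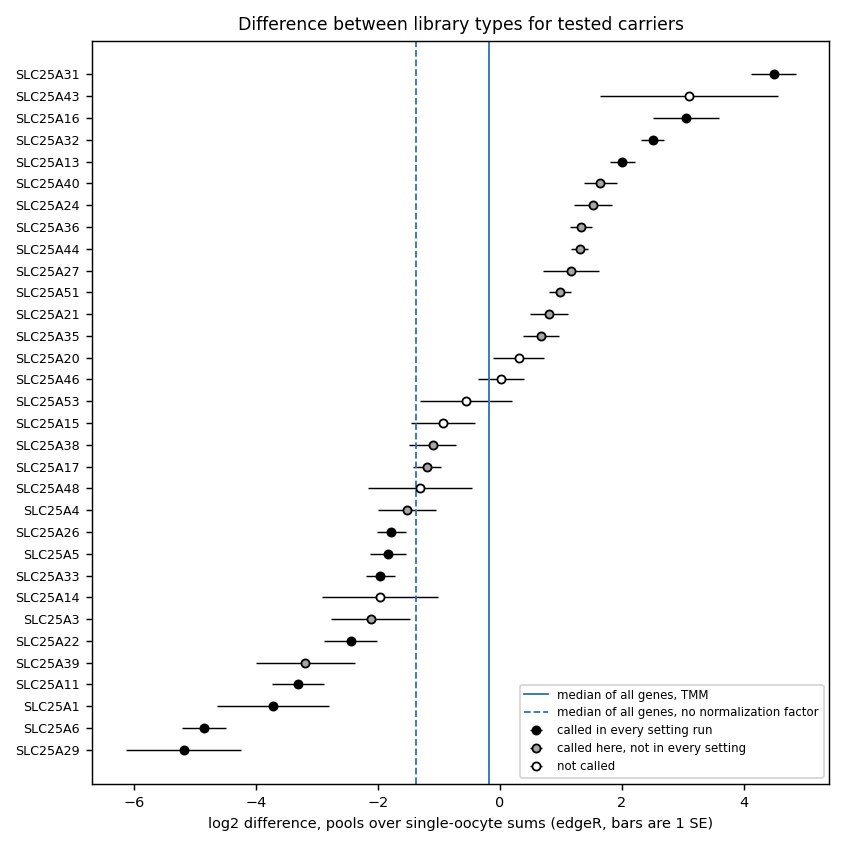
log2 difference between pools and single-oocyte sums (horizontal axis, pools over sums, edgeR with TMM) for the tested SLC25A genes reported here, with bars of 1 standard error. Lines mark the median of all genes under TMM (-0.17) and with no normalization factor (-1.37), and SLC25A31 at 4.49 and SLC25A29 at -5.19 stand at the ends.

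The ADP/ATP carriers went opposite ways between library types. SLC25A31, the ADP/ATP carrier known from mouse as a germ-cell form, had a lowest, median and highest level of 55.4, 146 and 211 CPM in pools and 0, 13.8 and 69.0 CPM in single oocytes. The log2 difference was 4.49 (SE 0.37, 4.66 relative to the median gene, edgeR adjusted p = 5.6e-11). SLC25A6, a widely expressed ADP/ATP carrier, went the other way, at 0.746, 2.43 and 8.66 CPM in pools and 99.0, 152 and 266 CPM in single oocytes. No pool came near the lowest single oocyte, and the log2 difference was -4.86 (SE 0.36, -4.68 relative to the median gene, edgeR adjusted p = 6.79e-12). SLC25A5, the form known from dividing cells, had 3.31, 17.7 and 31.7 CPM in pools and 33.1, 118 and 227 CPM in single oocytes, again without overlap (log2 difference -1.83, SE 0.29, -1.66 relative to the median gene). SLC25A4, the form of heart and muscle, had 0.220, 2.21 and 4.94 CPM in pools and 0, 10.4 and 53.3 CPM in single oocytes, a log2 difference of -1.52 (SE 0.47, -1.35 relative to the median gene) whose call was lost in deficient libraries alone, where the estimate was -1.84.

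As a share of the counts of these 4 genes, SLC25A31 took 57.1% to 96.6% of a pool, with a median of 86.8%, and 0% to 15.9% of a single oocyte, with a median of 4.33%. SLC25A6 took 0.341% to 8.91% of a pool (median 1.5%) and 31.8% to 72.8% of a single oocyte (median 53.1%), and SLC25A5 1.84% to 32.3% of a pool (median 10.6%) and 18.4% to 54.4% of a single oocyte (median 37.6%). A share within these genes does not depend on the library's scaling. Between the states the shares overlapped, SLC25A31 taking a median of 89.7% in deficient pools and 85.1% in normal pools, and SLC25A6 a median of 52.8% in deficient and 53.8% in normal single oocytes. By state, SLC25A31 averaged 146 ± 54.0 CPM in deficient against 133 ± 42.4 CPM in normal pools (SD, n = 5 and 6), and 17.5 ± 16.9 CPM in deficient and 12.9 ± 12.6 CPM in normal single oocytes (SD, n = 14 and 15). SLC25A6 averaged 1.96 ± 1.31 CPM in deficient against 3.83 ± 2.91 CPM in normal pools, and 163 ± 45.6 CPM in deficient and 165 ± 51.8 CPM in normal single oocytes. The pools titled B2 stood apart in both states, with the lowest SLC25A31 of their group, 61.6 CPM in the deficient and 55.4 CPM in the normal pool, and the highest SLC25A5, 31.7 and 30.6 CPM. Reads that match retrocopies of these genes could be split or lost in counting, so the levels of SLC25A4, SLC25A5 and SLC25A6 are uncertain.

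**Figure D5:**
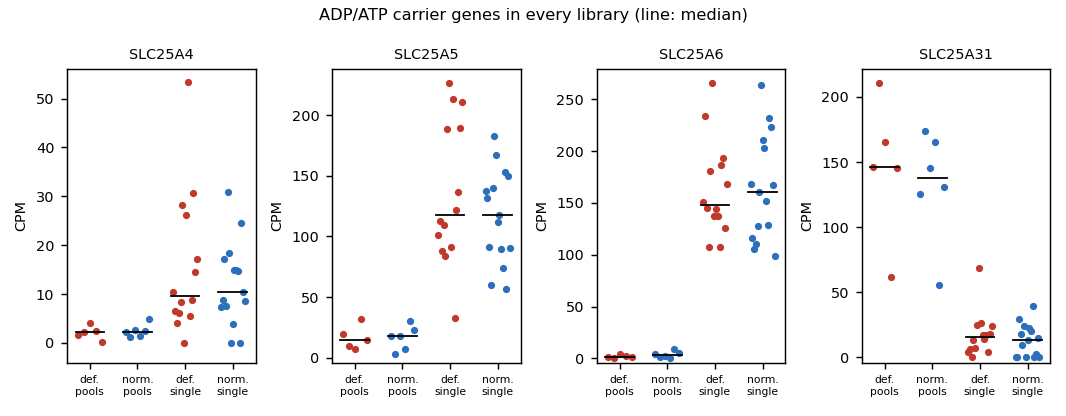
CPM (vertical axis, linear, a scale for each gene) of the ADP/ATP carrier genes SLC25A4, SLC25A5, SLC25A6 and SLC25A31 in each of the 40 libraries, with a line at the median of deficient pools, normal pools, deficient single oocytes and normal single oocytes. SLC25A6 lies at 0.746 to 8.66 CPM in pools and 99.0 to 266 CPM in single oocytes, while SLC25A31 lies at 55.4 to 211 CPM and 0 to 69.0 CPM.

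The phosphate carrier SLC25A3 had a lowest, median and highest level of 0, 1.10 and 4.02 CPM in pools and 0, 6.53 and 46.1 CPM in single oocytes (log2 difference -2.12, SE 0.65, -1.95 relative to the median gene), with the call lost in deficient libraries alone, where the estimate was -2.18. SLC25A17 had 14.5, 29.3 and 53.1 CPM in pools and 37.7, 116 and 286 CPM in single oocytes (-1.20, SE 0.22, -1.02 relative to the median gene), a call lost in normal libraries alone, where the estimate was -0.60. SLC25A24, an ATP-Mg/phosphate carrier, ranged over 10.02 to 26.6 CPM in pools and 0 to 55.9 CPM in single oocytes and was called higher in pools (1.53, SE 0.32, 1.70 relative to the median gene) except with no normalization factor. Its relatives SLC25A23, SLC25A25 and SLC25A41 had 2, 3 and 0 counts over all pools and 21, 10 and 6 over all single oocytes.

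The pyrimidine nucleotide carriers differed from each other. SLC25A33 had a lowest, median and highest level of 3.40, 10.197 and 13.8 CPM in pools and 17.2, 63.7 and 131 CPM in single oocytes, without overlap (log2 difference -1.96, SE 0.24, -1.79 relative to the median gene). SLC25A36, which carries pyrimidine nucleotides too, had 127, 149 and 211 CPM in pools and 61.7, 134 and 182 CPM in single oocytes (1.33, SE 0.18, 1.5 relative to the median gene), and its call was lost with no normalization factor, where the estimate was 0.22. Neither passed the test between the states. SLC25A36 averaged 148 ± 2.54 CPM in deficient pools and 158 ± 30.1 CPM in normal pools, the deficient pools lying within 146 to 152 CPM and the normal ones spread over 127 to 211 CPM. SLC25A33 averaged 7.14 ± 3.39 CPM in deficient against 10.6 ± 2.24 CPM in normal pools, and 72.1 ± 22.5 CPM in deficient and 68.0 ± 33.5 CPM in normal single oocytes.

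Among the cofactor carriers, SLC25A32, which carries folate and FAD, had a lowest, median and highest level of 349, 380 and 465.9 CPM in pools and 69.7, 159 and 310 CPM in single oocytes. Every pool stood above every single oocyte (log2 difference 2.51, SE 0.19, 2.68 relative to the median gene, edgeR adjusted p = 6.94e-12). SLC25A16, linked to coenzyme A transport, had 2.63, 11.4 and 16.7 CPM in pools and 0, 1.48 and 24.3 CPM in single oocytes, 12 of which had no count (3.06, SE 0.54, 3.23 relative to the median gene). The pools titled B2 were the lowest of their group here as well, at 2.63 CPM in the deficient and 2.65 CPM in the normal one. SLC25A26 lay at 5.53, 12.7 and 22.3 CPM in pools and at 45.2, 81.2 and 202 CPM in single oocytes, without overlap (-1.78, SE 0.23, -1.61 relative to the median gene). SLC25A51, the NAD carrier, had 68.4, 105 and 131 CPM in pools and 29.6, 114 and 208 CPM in single oocytes, and its sign depended on the scaling, at 0.99 (SE 0.18) with TMM and -0.12 with no normalization factor. By state it averaged 97.8 ± 14 CPM in deficient against 108 ± 22.7 CPM in normal pools, and 108 ± 49.1 CPM in deficient and 120 ± 35.1 CPM in normal single oocytes.

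Carriers of the malate-aspartate shuttle went opposite ways between the library types. SLC25A13, the aspartate/glutamate carrier also named citrin, had a lowest, median and highest level of 135, 293 and 393 CPM in pools and 50.7, 157 and 294 CPM in single oocytes (log2 difference 2.01, SE 0.20, 2.18 relative to the median gene, edgeR adjusted p = 2.35e-09). SLC25A11, its partner in the shuttle, had 0.0692, 2.55 and 9.76 CPM in pools and 16.6, 41.6 and 108 CPM in single oocytes, without overlap (-3.31, SE 0.43, -3.14 relative to the median gene, edgeR adjusted p = 1.62e-07). For SLC25A13 the deficient pools had 350, 135, 170, 321 and 346 CPM, the low values being A2 and A3, and the normal pools a lowest, median and highest level of 228, 291 and 393 CPM. SLC25A1, the citrate carrier that supplies acetyl-CoA for lipid synthesis, had a count in 6 of 11 pools, at 0, 0.105 and 0.575 CPM, and in 22 of 29 single oocytes, at 0, 5.03 and 26.1 CPM (-3.72, SE 0.92, -3.55 relative to the median gene). SLC25A22, a glutamate carrier, ranged over 0.138 to 6.37 CPM in pools and 4.47 to 141 CPM in single oocytes (-2.45, SE 0.43, -2.28 relative to the median gene). SLC25A21, which carries 2-oxoadipate, ranged over 15.5 to 34.2 CPM in pools and 0 to 64.5 CPM in single oocytes, and its estimate was 0.81 (SE 0.31) with TMM and -0.33 with no normalization factor.

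Of the amino acid and carnitine carriers, SLC25A44, which moves branched-chain amino acids, had a lowest, median and highest level of 418, 512 and 590 CPM in pools and 324, 446 and 570 CPM in single oocytes. Its log2 difference was 1.31 (SE 0.14, 1.48 relative to the median gene), and the call was lost with no normalization factor, where the estimate was 0.21. It averaged 499 ± 75.9 CPM in deficient against 514 ± 52.5 CPM in normal pools, and 445 ± 64.1 CPM in deficient and 428 ± 68.6 CPM in normal single oocytes. SLC25A20, the carnitine/acylcarnitine carrier that feeds fatty acids to oxidation, had 1.76, 7.68 and 13.3 CPM in pools and 0, 10.9 and 57.1 CPM in single oocytes. It was not called between library types with TMM (log2 difference 0.31, SE 0.43, edgeR adjusted p = 0.532). Its state means were 6.69 ± 3.60 CPM in deficient against 8.92 ± 3.60 CPM in normal pools, and 15.5 ± 17.9 CPM in deficient and 12.99 ± 12.4 CPM in normal single oocytes. SLC25A29, a carrier of basic amino acids, had 21 counts over all pools, 15 of them in the normal pool B1, and 73 over the single oocytes, of which 19 of 29 had a count. It was at 0, 0 and 0.509 CPM in pools and 0, 2.98 and 24.7 CPM in single oocytes (-5.19, SE 0.95, -5.02 relative to the median gene). SLC25A38 had 0.982, 3.93 and 9.76 CPM in pools and 0, 17.4 and 35.9 CPM in single oocytes (-1.10, SE 0.39, -0.93 relative to the median gene), a call lost in normal libraries alone, where the estimate was -0.30. SLC25A15 was not called with TMM, at 0.441, 1.88 and 5.89 CPM in pools and 0, 6.54 and 38.8 CPM in single oocytes (-0.93, SE 0.53, edgeR adjusted p = 0.12).

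The iron carriers were near the floor. SLC25A28, mitoferrin 2, had 0 counts in deficient pools and 9 in normal pools, 6 of them in B2, and 6 counts in deficient and 1 in normal single oocytes. SLC25A37, mitoferrin 1, had 1 count in all pools and 1 in all single oocytes, both in the deficient state. Neither could be tested. The glutathione carriers again parted by library type. SLC25A39 had a lowest, median and highest level of 0, 1.12 and 10.8 CPM in pools and 0, 25.1 and 82.1 CPM in single oocytes (-3.19, SE 0.82, -3.02 relative to the median gene), with the call lost in normal libraries alone at an estimate of -2.09, and SLC25A40 had 18.8, 38.4 and 57.9 CPM in pools and 6.12, 28.3 and 64.6 CPM in single oocytes (1.65, SE 0.27, 1.82 relative to the median gene), with the call lost with no normalization factor. By state, SLC25A39 had 1.12, 0, 0, 2.24 and 1.10 CPM in deficient pools and 0, 1.96 and 10.8 CPM in normal pools as lowest, median and highest. In single oocytes it averaged 34.4 ± 21.4 CPM in the deficient and 28.1 ± 17.3 CPM in the normal state. SLC25A40 averaged 37.2 ± 14.1 CPM in deficient against 41.3 ± 10.5 CPM in normal pools, and 22.5 ± 15.7 CPM in deficient and 32.5 ± 14.4 CPM in normal single oocytes.

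Of the remaining members, SLC25A46 was not called between library types with TMM (log2 difference 0.02, SE 0.37). It lay at 2.98, 11.3 and 22.9 CPM in pools and 0, 19.4 and 112 CPM in single oocytes. Its estimate with no normalization factor is not given here. More members were called lower in pools with no factor than with TMM, so a missing call with TMM does not show equal levels. SLC25A27, at 1.01, 8.68 and 15.98 CPM in pools and 0, 3.91 and 28.2 CPM in single oocytes, was called higher in pools (1.16, SE 0.46, 1.33 relative to the median gene) with the call lost in 5 of 7 other settings. SLC25A35, whose substrate is not settled, was called at 0.68 (SE 0.30) with TMM and stood at -0.40 with no normalization factor. SLC25A43, also without a settled substrate, had a count in 8 of 11 pools, 193 in all, and 2 counts in 1 of 29 single oocytes, at 0, 0.373 and 2.84 CPM in pools and 0, 0 and 6.53 CPM in single oocytes. Its log2 difference was 3.10 (SE 1.46, edgeR adjusted p = 0.0622), and a single count in an oocyte is worth more than most pools' level. SLC25A45, SLC25A47 and SLC25A41 had no count in any pool and 3, 5 and 6 counts over the single oocytes. SLC25A14, SLC25A48 and SLC25A53 averaged under 2 CPM in each group of pools, with 73, 162 and 417 counts over the 11 pools. They had 37, 43 and 64 counts over the single oocytes, and none was called between library types with TMM. In all, 10 members could be tested in neither table for the state.

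Mitochondrial transport genes outside the symbol rule, 30 with a row among 35 listed, had no call for the state either. They were uncoupling proteins, MTCH1 and MTCH2, the pyruvate carrier, outer membrane channels, calcium and cation transporters, sideroflexins, carnitine palmitoyltransferases and the import chaperones of carriers. The uncoupling proteins, MTCH1 and MTCH2 are carrier family genes under other symbols, so the members described above are not the whole family. edgeR called 0 of 17 tested in pools and 0 of 15 tested in sums, with 1 at an unadjusted p under 0.05 in each. With the smallest p in pools, TIMM13, part of the chaperone complex that guides carriers to the inner membrane, had a lowest, median and highest level of 0.0442, 0.761 and 1.37 CPM in deficient pools and 1.59, 3.42 and 6.34 CPM in normal pools (log2 difference -2.28, SE 0.73, edgeR unadjusted p = 0.00667, adjusted p = 0.785). The groups of TIMM13 did not overlap in pools, and in the sums its estimate was -0.03 (SE 0.40). MPC2, a subunit of the mitochondrial pyruvate carrier, had the smallest p in sums (-1.29, SE 0.61, edgeR unadjusted p = 0.0468, adjusted p = 1.00), with 0, 3.62 and 22.5 CPM in deficient and 0, 16.3 and 36.9 CPM in normal single oocytes, and stood at -0.12 (SE 0.25) in pools. Between library types edgeR called 7 of 21 higher and 9 lower in pools with TMM, 6 and 10 with RLE size factors, and 1 and 13 with no normalization factor, beside the shares of all genes given above, 31.8% higher and 35.2% lower with TMM. LETM1, an inner membrane cation exchanger, had 0.0459, 0.95 and 4.05 CPM in pools and 13.1, 82.0 and 155 CPM in single oocytes as lowest, median and highest, a log2 difference of -5.13 (SE 0.40), and MPC2 was higher in pools at 2.34 (SE 0.31) with TMM and 1.26 with no normalization factor.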

How the data were processed

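Per the labels, pools were extracted with a column kit and amplified by single-primer isothermal amplification, and single oocytes were processed in the tube with a kit that depletes unwanted pig transcripts. Reads were 100 bp paired-end. The authors deposited 2 tables of unnormalized whole-number counts of reads per gene. FastQC, Trim Galore, TopHat2 2.0.14, edgeR and the build Sscrofa10.2 are named in the submitters' processing notes, while no source used here gives the counting program or strand setting, so overlapping antisense genes and near-identical copies are uncertain. The row without a gene name in each table, 1.05% to 4.75% of a pool's counts and 0.648% to 8.15% of a single oocyte's, was left out of totals and tests. Symbols were matched in Sscrofa11.1 name tables, whose coordinates were not used. Transcript lengths were not used here, so levels are not compared between genes.

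The main test was edgeR's quasi-likelihood test (edgeR 4.0.16 in R 4.3.3, robust, default expression filter, TMM) over the whole table, Benjamini-Hochberg adjusted with calls under 0.05. DESeq2 1.42.0, limma-voom (limma 3.58.1), RLE size factors, no filter, left-out libraries, replicate blocks, title letters, dates and oocytes as samples were alternatives. A fit scaled with no normalization factor was chosen after seeing the data. Named members were the 5 with the highest mean CPM in each table, the 5 of smallest p for the state in each table, the 3 largest differences in each direction between library types and a fixed set of carriers. The members, lists and alternatives were chosen with earlier results of these data known. Replicates differed by more than counting noise, with a chi-square per degree of freedom of at least 35.0 between 2 pools of a group and at least 4.09 between 2 single oocytes. Deviations of single-oocyte sums with the same title number correlated at 0.143 to 0.220 over 3 pairs, against -0.149 to -0.0612 between different numbers. Deviations of so few sums balance out within a state, so positive values for the same number push the others below 0. The values between different numbers are therefore no independent baseline. The main fit of the sums did not use the number as a block, and the number goes partly with the date. The p-values of that fit do not allow for pairing. One member counted among the 41 is not reported here.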

Additional observations from a re-analysis of the deposited data

Results flagged for a closer look

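A search for a library far from the rest of its group covered 81 groups of deficient pools, normal pools or deficient single-oocyte sums. It flagged 8, all of them levels of named carriers. The normal sums were not searched, and groups in which all values were equal, such as all at 0, were not tested. Chance flags about 1 in 20 groups of normally distributed values, a rate that does not hold for groups mostly at 0 counts, where a lone count is always far from the rest. SLC25A39 had 10.8 CPM in the normal pool B2, against 0 to 3.82 CPM in the other normal pools. It had 4.17 CPM in the deficient sum 2, from 3 counts in 2 oocytes, against 38.0 to 40.5 CPM in the other deficient sums. The normal pool B2 was also far above its group for SLC25A43, at 2.84 CPM against 0 to 0.597 CPM, and for SLC25A28, at 0.221 CPM against 0 to 0.0678 CPM. SLC25A29 had 0.509 CPM in the normal pool B1, against 0 to 0.0737 CPM. SLC25A28 had 1.75 CPM in the deficient sum 4, while the other deficient sums were at 0. SLC25A37 had 0.507 CPM in the deficient sum 3 and 0.0441 CPM in the deficient pool B4, each from 1 count in a group otherwise at 0.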

How the results depend on the processing

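The total of called carriers stayed within the ranges given below, while between library types the split into higher and lower moved with the scaling. For the state 0 members were called in pools and in sums in every setting run, leaving out any 1 pool or any 1 sum included, and 0 in the interaction with each oocyte as a sample, RLE size factors or limma-voom. Between library types 26 were called, where 67% of all genes were. In the other settings 19 to 26 were called, with 19 in normal and 19 in deficient libraries alone. The shares of all genes in those fits of 1 state are not given here. A replicate block on the title number of the single-oocyte sums gave 0 called members with 0 at an unadjusted p under 0.05. In pools same-unit deviations correlated at -0.105 (A2), 0.127 (A3), 0.0781 (B4) and 0.476 (B2), so the pools titled B2 deviated together but not every pair did, and the units were not taken as pairs. A replicate block there gave 0 called with 1 at an unadjusted p under 0.05, against 2 in the same pools without it. The direction of SLC25A11 in sums turned to 0.39 in oocytes of 22 September alone, and ran from -0.35 to 0.11 with 1 sum left out. SLC25A15 in sums ran from -0.13 to 0.87 with 1 sum left out. With no normalization factor SLC25A21, SLC25A35 and SLC25A51 turned to -0.33, -0.40 and -0.12 between library types. The cause was not tested for the state or for the scaling, and the median of all genes stood at -1.37 with no normalization factor. In the sums 14 members stayed untested, 10 of them untested in pools too, and the 4 against 3 sums carry standard errors of up to 0.77 for the state differences given.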
